A study of Mus musculus with 4 samples.

Results

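The clustered histone genes are the genes of the mouse Hist1, Hist2 and Hist3 loci, which encode the linker histone H1 and the core histones H2A, H2B, H3 and H4. Every gene whose symbol begins with Hist1h, Hist2h or Hist3h was taken, which gave 66 of the 32285 genes in the deposited matrices. They comprise 6 H1, 18 H2A, 18 H2B, 12 H3 and 12 H4 genes. They were chosen because several had been seen at higher levels in most cell types of the AF12198-treated tumour, so every value of that tumour against the control tumour given here is a description of the choice and supports nothing by itself.

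Most clustered histone genes are switched on as a cell copies its DNA and supply the histones that package the new strands. Their mRNAs are unusual in that they normally end in a short stem-loop, bound by the protein SLBP, in place of a poly(A) tail, and they are broken down when S phase ends. Some loci also give longer polyadenylated mRNAs, which are best known from cells that have left the cell cycle, and a method that captures poly(A) tails reads mainly these or other tailed forms.

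Single-cell RNA sequencing (10x Genomics 3' kit, poly(A) RNA) was carried out on 4 mouse tissues, each of them 1 library. The AF12198-treated KPC tumour arose from KPC cells, a mouse pancreatic cancer line, injected into a pancreas tied off with a suture, in a mouse then given AF12198, a small peptide that blocks the interleukin-1 receptor IL1R1, every week into the peritoneum. The control KPC tumour was made in the same way with saline, the ligated pancreas had the suture, which brings on pancreatitis, and no tumour cells, and the normal pancreas had neither. All were taken at 4 weeks. The sources used here give neither the number of mice in a library, nor their strain, age and sex, nor the clone of the KPC line.

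After filtering, the AF12198-treated tumour, the control tumour, the ligated pancreas and the normal pancreas had 18875, 19235, 1124 and 1771 cells, with 85735234, 80398550, 5315805 and 11235204 unique molecular identifiers (UMIs, each standing for 1 captured mRNA molecule). The 2 tumour libraries shared 129 cell barcodes, and the other pairs shared 1 to 18. Over the 17801 genes with at least 20 UMIs in the tumours together, the median log2 ratio of the treated over the control tumour was -0.25, ribosomal protein genes took 16.2% against 10.1% of UMIs, and 20 genes known to be induced by tissue dissociation summed to 10867 against 22274 UMIs per 1000000 UMIs of those cells (CPM). Clusters were named from lists of cell type markers as T-like, epithelial-like and so on, and 3.28%, 1.46%, 11.7% and 37.0% of the cells stayed unnamed. The normal pancreas held 2 cells named acinar-like, although acinar cells make up most of that organ. A cluster with 634 of its cells, led by Ins1 and Ins2, had 10 acinar and 9 epithelial markers raised and so stayed unnamed. With 1 library per group, no difference has a replicate check and no p-value is given. Intervals are exact, 95%, and cover counting error only.

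The genes lie in 4 blocks of the genome (build mm10, positions from the GENCODE annotation of GRCm38). Block 1 holds Hist3h2ba and Hist3h2a on chromosome 11 (58948920 to 58956830). Block 2 holds 23 genes on chromosome 13 (21715763 to 22043676) and block 3 the next 31 on the same chromosome (23531050 to 23934851). Block 4 holds the 10 Hist2 genes on chromosome 3 (96219865 to 96270132).

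The 3' end is where the assay reads these genes, so the stem-loops of 4 members that recur below are shown, with the letters of the paired stem in capitals and 5 flanking bases on each side, from the GENCODE transcripts.
Hist1h1c: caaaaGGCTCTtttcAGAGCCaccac
Hist1h4d: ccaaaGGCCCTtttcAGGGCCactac
Hist2h2ac: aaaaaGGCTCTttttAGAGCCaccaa
Hist3h2a: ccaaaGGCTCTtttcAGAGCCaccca
Of the 43 members with a stem-loop in their annotated transcript, 26 shared the letters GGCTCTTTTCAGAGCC, and all 10 H4 genes among them had a different stem, as in Hist1h4d. The annotated transcript stopped at the stem-loop in 22 members (median length 483.5 bases), ran at least 100 bases beyond it in 21 (median 1249) and held none in 23 (median 411). Hist2h2ac (chr3:96220361-96220880, minus strand) is of the first kind, Hist1h1c (chr13:23738808-23740367, plus strand), Hist1h4d (chr13:23581598-23582735, plus strand) and Hist3h2a of the second, and Hist1h1b (chr13:21779883-21780625, minus strand) and Hist1h2bc (chr13:23684199-23692908, plus strand) of the third. The third kind describes the annotation only, since an annotated transcript can stop short of a stem-loop that the gene has. Many of its transcripts are short, such as Hist1h2bl at 381 bases.

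Promoter sequences (250 bases before to 50 bases after the start, RefSeq, GRCm38.p6) were matched for 60 of the 66 members. Those of 3 members that were far higher in the treated tumour, Hist1h1b (chr13:21780576-21780875), Hist1h4d (chr13:23581318-23581617) and Hist2h2ac (chr3:96220831-96221130), and of Hist1h1c (chr13:23738557-23738856), which was lower, are shown with motif matches in capitals. The motifs are the CCAAT box (CCAAT), the TATA box (TATAAA), the octamer of H2A and H2B genes (ATTTGCAT) and the H1 box (AAACACA), each searched on both strands and counted on its own, with overlaps between motifs allowed.
Hist1h1b: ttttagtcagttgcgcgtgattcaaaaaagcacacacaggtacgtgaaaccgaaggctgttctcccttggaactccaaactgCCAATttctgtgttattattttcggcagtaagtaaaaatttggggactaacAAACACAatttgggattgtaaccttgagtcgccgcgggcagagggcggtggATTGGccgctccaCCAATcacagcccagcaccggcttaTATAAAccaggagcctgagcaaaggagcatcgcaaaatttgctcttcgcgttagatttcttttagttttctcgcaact
Hist1h4d: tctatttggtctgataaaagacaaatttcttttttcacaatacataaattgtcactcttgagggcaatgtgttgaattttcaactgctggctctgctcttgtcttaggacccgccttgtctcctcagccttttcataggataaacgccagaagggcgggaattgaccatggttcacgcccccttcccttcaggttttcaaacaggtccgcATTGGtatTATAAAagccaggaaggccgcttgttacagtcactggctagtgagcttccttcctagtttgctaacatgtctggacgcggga
Hist2h2ac: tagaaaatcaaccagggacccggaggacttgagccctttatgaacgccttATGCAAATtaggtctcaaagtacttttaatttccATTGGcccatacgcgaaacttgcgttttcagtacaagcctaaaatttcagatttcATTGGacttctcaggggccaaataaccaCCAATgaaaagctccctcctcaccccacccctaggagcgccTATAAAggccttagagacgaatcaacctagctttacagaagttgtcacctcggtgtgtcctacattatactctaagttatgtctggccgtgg
Hist1h1c: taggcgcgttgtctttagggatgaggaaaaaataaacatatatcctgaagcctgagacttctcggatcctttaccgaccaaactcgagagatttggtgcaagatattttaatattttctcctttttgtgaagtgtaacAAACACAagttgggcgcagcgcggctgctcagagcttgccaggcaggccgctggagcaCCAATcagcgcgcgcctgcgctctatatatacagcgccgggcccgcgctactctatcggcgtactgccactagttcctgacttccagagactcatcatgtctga
CCAAT was found in 86.7% of the members' promoters and 37.4% of all 32851 promoters of this length, TATAAA in 56.7% and 13.6%, ATTTGCAT in 21.7% and 1.74%, and AAACACA in 13.3% and 7.18%. The octamer matches were in 7 H2A and 6 H2B genes. AAACACA was in 4 of the 5 H1 promoters and also in 2 H2A and 2 H2B promoters. The 4 H1 genes include Hist1h1b and Hist1h1c, which differed in opposite directions between the tumours. A match of letters is a description and not a binding site.

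Of the 66 genes, 3 (Hist1h2aa, Hist1h2ba and Hist1h2bq) had no UMI in any library and 5 had 1 to 19 in the 4 libraries together. Hist1h2bc, an H2B gene, and Hist1h1c, an H1 gene, held 47.6% of all histone UMIs, and the 12 members with the most UMIs held 83.4%. The summed level of the 66 genes was 387 CPM in the AF12198-treated tumour, 318 in the control tumour, 316 in the ligated pancreas and 342 in the normal pancreas. The sum hid larger movements of single genes, as the plot of the 12 leading genes by library shows.

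**Figure D1:**
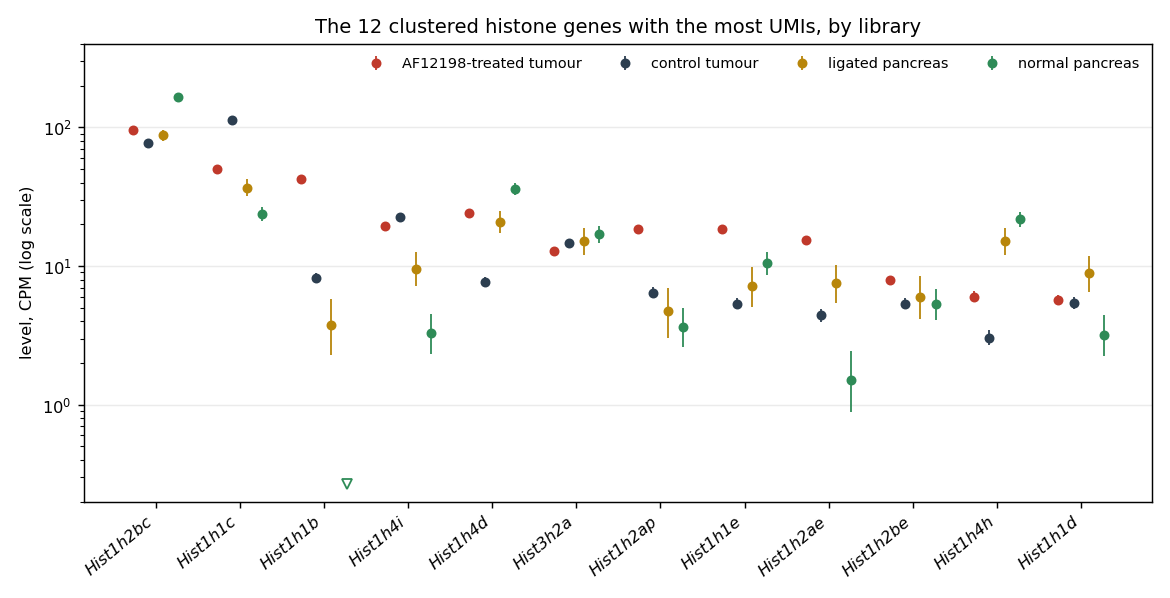
Level of the 12 clustered histone genes with the most UMIs, in CPM on a log scale, in each of the 4 libraries. Points are 1 library each, bars are exact 95% Poisson intervals, and the open triangle marks Hist1h1b in the normal pancreas, where it had 0 UMIs (3 counts would be 0.267 CPM). Hist1h1b is at 42.3 CPM in the treated tumour and 8.21 CPM in the control tumour, and Hist1h1c at 50.6 CPM and 113 CPM.

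Hist1h1b, a linker H1 gene expressed with DNA replication, had 42.3 CPM in the AF12198-treated tumour, 8.21 CPM in the control tumour, 3.76 CPM in the ligated pancreas and 0 UMIs in the normal pancreas. Hist1h1c, another H1 gene, had 50.6 CPM in the treated tumour, 113 CPM in the control tumour, 36.9 CPM in the ligated pancreas and 23.9 CPM in the normal pancreas. The 2 linker genes therefore had their highest level in different tumours. Hist1h2bc had 96.4, 76.6, 87.7 and 165 CPM in this order of libraries, highest in the normal pancreas, and Hist1h4d, an H4 gene, had 24.2, 7.67, 20.9 and 35.8 CPM, lowest in the control tumour. Hist3h2a, an H2A gene, kept within 12.9 to 16.9 CPM in all 4 libraries.

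Cells counted as cycling, those with at least 2 UMIs of Mki67 and Top2a together (a nuclear antigen of dividing cells and a topoisomerase of late cycle), were compared with all other cells. They were 985 cells or 5.22% (4.91 to 5.55) of the treated tumour and 1132 cells or 5.89% (5.56 to 6.23) of the control tumour, but held 46.8% of the histone UMIs of the treated tumour and 23.2% of those of the control tumour. In the treated tumour the summed level was 1107 CPM in cycling cells and 246 CPM in other cells, 4.49-fold higher (4.40 to 4.59). In the control tumour it was 390 CPM in cycling cells and 301 CPM in other cells, 1.30-fold higher (1.26 to 1.33). These pools mix cell classes, and single classes of the control tumour differed. There T-like cells had 652 CPM in cycling and 192 CPM in other cells, and dendritic-like cells 503 and 168 CPM. Neutrophil-like cells had 801 and 658 CPM. In fibroblast-like cells (309 and 311 CPM) and plasma-like cells (694 and 683 CPM) the interval of the ratio included 1. T-like cells of the treated tumour had 2944 CPM in cycling and 192 CPM in other cells.

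The genes took different parts in this. In the treated tumour 50 members reached 20 UMIs, of which 42 were at least 1.5-fold higher in cycling cells and 1 was lower, against 24.3% higher and 16.6% lower among 16270 genes. In the control tumour 31 of 43 were higher and 5 lower, against 22.4% and 23.5% of 16473 genes. Members whose annotated transcript stops at the stem-loop were all among the higher ones, 15 of 15 in the treated and 13 of 13 in the control tumour.

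Hist1h1b had the largest ratio in the treated tumour among the 42 members with enough UMIs in both tumours. It had 248 CPM in cycling cells of the treated tumour and 1.95 CPM in its other cells, a ratio of 127, and 39.1 CPM in cycling cells of the control tumour and 1.01 CPM in its other cells, a ratio of 38.7. Hist1h1c and Hist1h2bc, the members with the most UMIs, did not follow the cycle in this way when all classes were pooled. Such pools mix cell classes, and a single class can differ. In T-like cells of the treated tumour Hist1h1c had 86.4 CPM in cycling cells, more than in other T-like cells. Over all classes, Hist1h1c had 51.1 CPM in cycling and 50.4 CPM in other cells of the treated tumour, and 59.0 CPM in cycling and 125 CPM in other cells of the control tumour. Hist1h2bc had 79.0 CPM in cycling and 99.8 CPM in other cells of the treated tumour, and 54.0 CPM in cycling and 81.8 CPM in other cells of the control tumour.

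**Figure D2:**
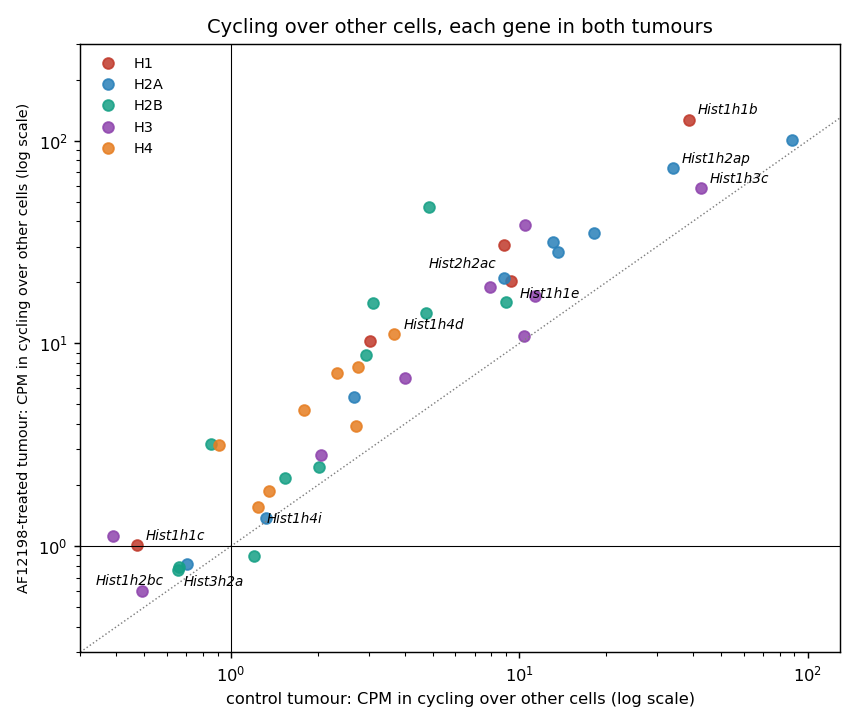
Level in cycling over level in other cells of the 42 members with enough UMIs in both tumours, for the AF12198-treated tumour (vertical axis) and the control tumour (horizontal axis), on log scales and coloured by histone family. Points above the dotted diagonal have a larger ratio in the treated tumour, as 41 of the 42 do, and Hist1h1b is at 127 and 38.7.

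Between the tumours, the members were higher in the cycling cells of the AF12198-treated tumour and mixed in its other cells. Over all cells the summed level was 387 CPM in the treated and 318 CPM in the control tumour, a ratio of 1.22 (1.20 to 1.24), which turned to 0.932 when each cell was given equal weight. Of 57 members with at least 20 UMIs, 31 were at least 1.5-fold higher and 9 at least 1.5-fold lower, beside 9.4% higher and 35.2% lower of 17801 genes. The members' median log2 ratio was 0.26. The members were picked from this contrast, so nothing is read from these shares.

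In cycling cells the summed level was 1107 CPM in the treated and 390 CPM in the control tumour, a ratio of 2.84 (2.75 to 2.92). Of 53 members, 39 were higher and 3 lower, beside 8.98% and 29.4% of 14397 genes, and the median log2 ratio was 0.88 for the members and -0.27 for all genes. In other cells the order of the sums was the opposite, with 246 CPM in the treated and 301 CPM in the control tumour, a ratio of 0.818 (0.801 to 0.835). There, 14 of 42 members were higher and 10 lower, beside 9.21% and 36.3% of 17415 genes. Without Hist1h2bc and Hist1h1c, the ratio was 3.52 in cycling cells and 1.02 in other cells. In other cells Hist1h1c alone, with 50.4 CPM in the treated and 125 CPM in the control tumour, differed by more than the sum did.

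**Figure D3:**
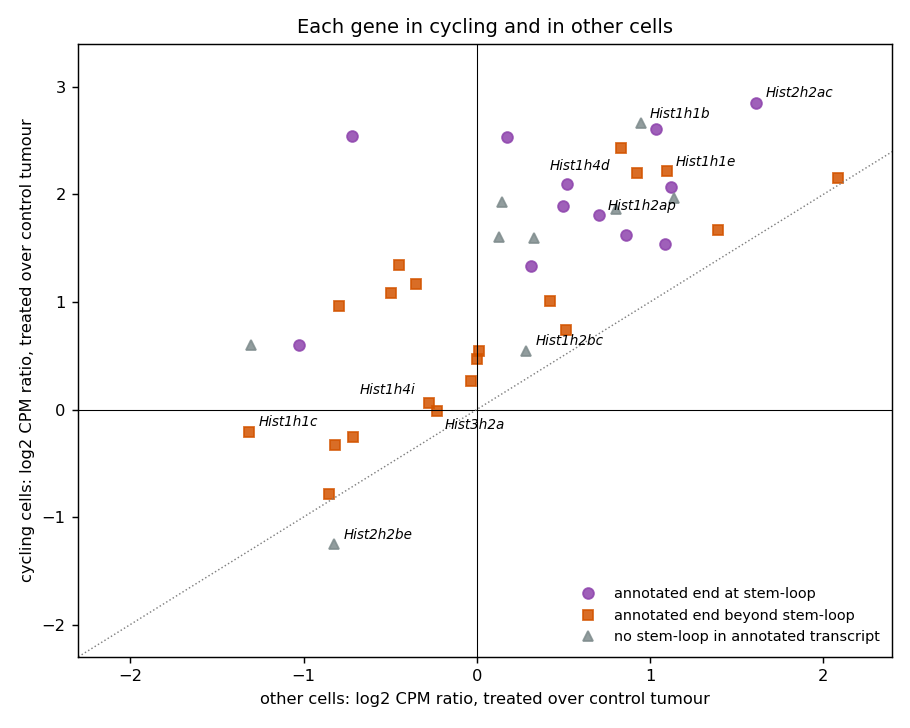
Log2 ratio of the treated over the control tumour for each of 42 members, in cycling cells (vertical axis) and other cells (horizontal axis), by where the annotated transcript ends. Most members lie in the upper part, where Hist2h2ac (7.23-fold) and Hist1h1b (6.34-fold) are high in cycling cells, while Hist1h1c (0.402 in other cells) lies far left. Being above the dotted diagonal here is the same arithmetic as a larger ratio of cycling over other cells in the treated tumour, and holds for 41 of the 42 genes plotted, all but Hist2h2be.

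The linker H1 genes, which bind the DNA between nucleosomes, differed from each other. Hist1h1b had 248 CPM in cycling cells of the treated tumour and 39.1 CPM in those of the control tumour, 6.34-fold higher (5.81 to 6.93). Hist1h1e had 90.3 and 19.4 CPM in these cells, 4.64-fold higher. Hist1h1d had 23.3 and 11.9 CPM, and Hist1h1c had 51.1 and 59.0 CPM, a ratio of 0.866. Summed over the 6 H1 genes, cycling cells had 432 CPM in the treated and 135 CPM in the control tumour, and other cells had 59.8 and 133 CPM.

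Among the H2A genes, whose products pair with H2B in the nucleosome, Hist2h2ac had 32.4 CPM in cycling cells of the treated tumour and 4.48 CPM in those of the control tumour, 7.23-fold higher (5.59 to 9.47). Hist1h2an had the largest ratio of all members in these cells, 9.72, but from 18 and 2 UMIs (interval 2.33 to 86.4). Hist1h2ap had 106 and 30.3 CPM and Hist1h2ae 81.2 and 17.7 CPM. Hist1h2ac was lower, at 3.70 and 6.39 CPM, and Hist3h2a was nearly level, with a ratio of 0.989 (0.789 to 1.24) from 153 and 167 UMIs. The 18 H2A genes together had 286 CPM in the treated and 86.7 CPM in the control tumour.

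The H2B genes had the smallest family ratio, 1.89, with 147 CPM in cycling cells of the treated and 77.9 CPM in those of the control tumour, of which Hist1h2bc gave 79.0 and 54.0 CPM. Some members of few UMIs had larger ratios, such as Hist1h2bf at 6.12 (1.77 to 32.6, 17 and 3 UMIs) and Hist1h2bn at 5.94 (2.77 to 14.6, 44 and 8 UMIs). Hist2h2be was lower, at 1.49 CPM in the treated and 3.56 CPM in the control tumour.

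The H3 and H4 genes encode the histones at the centre of the nucleosome. The 12 H3 genes summed to 75.8 CPM in cycling cells of the treated and 29.9 CPM in those of the control tumour. Of the 11 with enough UMIs 9 were higher, beside 8.98% of 14397 genes, led by Hist1h3c (28.5 and 9.82 CPM) in level. The 12 H4 genes summed to 166 and 61.1 CPM, of which Hist1h4d alone had 101 and 18.8 CPM, 5.38-fold higher. Hist1h4i, by contrast, had 27.8 and 26.6 CPM, and Hist1h4n, a minor H4 gene, 0.356 and 1.32 CPM (5 and 20 UMIs, ratio 0.270, 0.0792 to 0.741).

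By transcript end, cycling cells of the treated and control tumours had 261 and 72.5 CPM for members annotated to stop at the stem-loop, 446 and 199 CPM for those running beyond it, and 400 and 119 CPM for those with none annotated. The ratios were 3.59, 2.25 and 3.36, and 16 of 17, 11 of 20 and 12 of 16 members were higher, beside 8.98% of 14397 genes. By position, the ratio was 1.18 in block 1, 3.86 in block 2, 2.41 in block 3 and 3.23 in block 4. The ratio of the sums was above 1.5 in every family, every kind of transcript end and 3 of the 4 blocks.

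Many members are near copies of each other. The median share of a member's transcript (windows of 50 bases) that also stands in another member was 73.0% for H2A, 57.2% for H3, 42.1% for H2B, 39.9% for H4 and 1.1% for H1, and it was over 50% for 30 of the 66 genes. Counts of such members can be shared out or dropped in mapping, so their single values are uncertain, while Hist1h1b had no shared window and Hist1h1c 8.54%. Hist1h2ap, among the 12 leading members, had 93.1%. In the last 300 bases, nearer to where the assay reads, the medians were 70.1% for H2A and 54.4% for H3. There Hist1h2ap had 100% and Hist1h1c 0%.

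The summed level in cycling cells was higher in the treated tumour in each of the 7 cell classes with at least 20 cycling cells in both tumours, as the plot of summed levels by class shows. T-like cells had 2944 CPM in the treated and 652 CPM in the control tumour, 4.52-fold higher (4.20 to 4.86; 196 and 228 cells). Dendritic-like cells had 1603 and 503 CPM, endothelial-like cells 1278 and 407 CPM and fibroblast-like cells 839 and 309 CPM. Epithelial-like cells, ductal or tumour by their markers, had 608 and 319 CPM and macrophage- or monocyte-like cells 661 and 356 CPM. Neutrophil-like cells had 995 and 801 CPM, a ratio of 1.24 whose interval (0.986 to 1.56) includes 1.

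**Figure D4:**
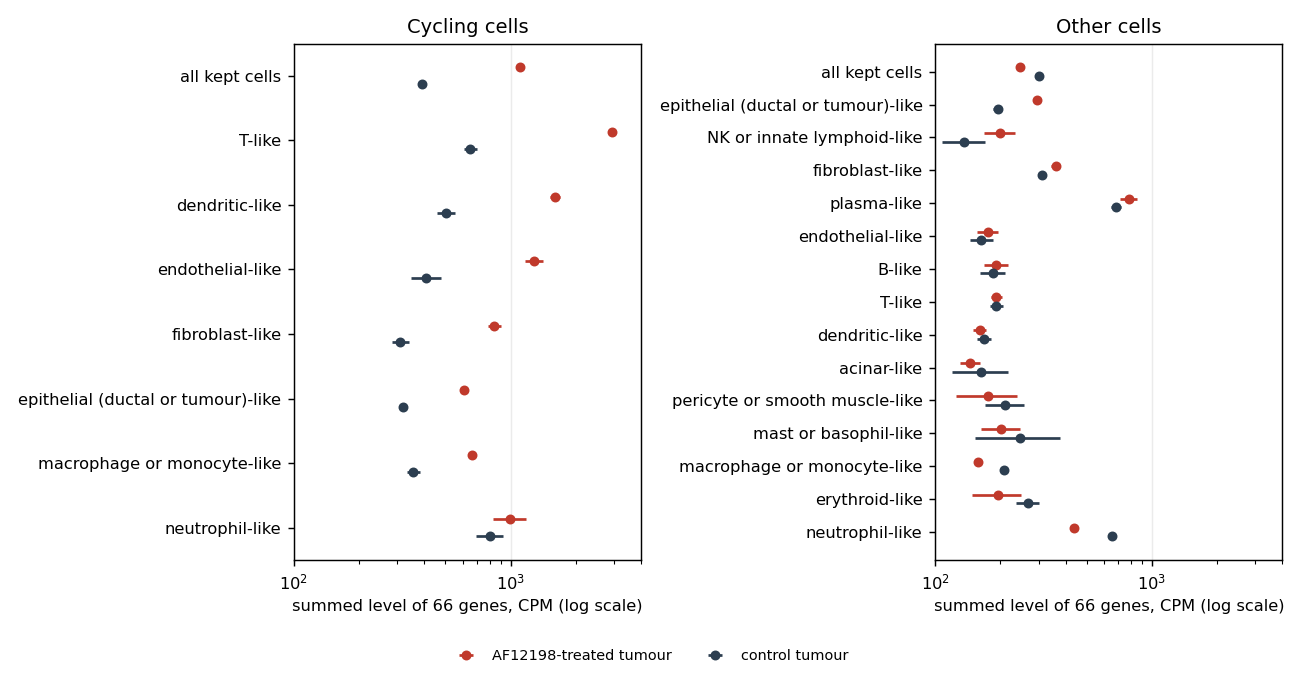
Summed level of the 66 genes in cycling cells (left) and other cells (right) of each cell class, in CPM on a log scale, for the AF12198-treated tumour (upper point of each pair) and the control tumour (lower point). Bars are exact 95% Poisson intervals, and classes run down the page from the largest to the smallest ratio. T-like cycling cells stand at 2944 and 652 CPM, and neutrophil-like other cells at 437 and 658 CPM.

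Hist1h1b had the most UMIs of the 12 leading members in the treated cycling cells of every class but the epithelial-like. There Hist1h2bc had 578 UMIs and Hist1h1b 386. In the dendritic-like class 12 of 16 members were higher and 1 lower, beside 8.86% and 36.3% of all genes with enough UMIs there. Hist1h1b had 445 CPM in its treated and 58.0 CPM in its control cells (7.67-fold, 5.75 to 10.4), and Hist1h4d 181 and 20.8 CPM. In the endothelial-like class 7 of 8 members were higher and none lower, beside 15.3% and 27.7%, with Hist1h1b at 237 and 27.8 CPM. In the fibroblast-like class 9 of 13 were higher and none lower, beside 10.3% and 24.7%, with Hist1h1b at 167 and 25.6 CPM (6.52-fold, 4.61 to 9.42) and Hist1h2ae at 69.7 and 11.2 CPM.

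In neutrophil-like cells only 4 members had enough UMIs, of which 1 was higher and 2 lower, beside 23.3% and 29.4% of genes. The share higher was near that of all genes, and so few members do not set this class apart. The higher one was Hist1h1b, at 279 CPM in the treated and 39.0 CPM in the control tumour (7.16-fold, 3.39 to 16.9), and Hist1h1c was lower at 121 and 281 CPM. Few neutrophil-like cells were cycling, 47 in the treated and 48 in the control tumour.

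In other cells the classes went different ways. Epithelial-like cells had 296 CPM in the treated and 194 CPM in the control tumour, NK- or innate lymphoid-like cells 199 and 137 CPM, and T-like cells 192 CPM in each. An equal sum in T-like cells did not mean equal genes: 14 of 24 members were higher and 3 lower, beside 6.59% and 41.7% of genes, with Hist1h4d at 27.0 CPM in the treated and 6.98 CPM in the control tumour and Hist1h1c at 20.2 and 49.3 CPM. In epithelial-like cells 9 of 19 members were higher and 3 lower, beside 9.88% and 27.1%, with Hist1h2bc at 179 and 72.6 CPM and Hist1h1c at a ratio of 0.468 (0.402 to 0.543). Macrophage- or monocyte-like cells had 158 and 207 CPM, with 8 of 27 members higher and 7 lower, beside 7.89% and 33.4%, and neutrophil-like cells 437 and 658 CPM. The macrophage- or monocyte-like cells were spread differently over clusters in the 2 tumours. Over all its cells, cluster 12 (led by Ms4a4c and Ccr2) had 112 CPM in 1237 treated and 171 CPM in 2320 control cells. The order was the opposite in cluster 15 (led by Ccl8 and Fcna), with 298 CPM in 1447 treated and 277 CPM in 1986 control cells, and in cluster 16 (led by Ccl24 and Arg1), with 200.2 CPM in 1532 treated and 179 CPM in 588 control cells.

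The neutrophil-like cells were largely in different clusters: of the treated tumour's, 3929 were in cluster 23 (led by Gpr84, Tnf and Siglecf) and 2914 in cluster 21, while 5252 of the control tumour's were in cluster 25, where Il1r2 and Ptgs2 lead. In other cells of the neutrophil-like class 6 of 20 members were higher and 6 lower, beside 7.73% and 37.7% of genes. Within cluster 25 the sum was 407 CPM in 178 treated and 695 CPM in 5252 control cells, and within cluster 23 it was 523 CPM in 3929 treated and 796 CPM in 197 control cells.

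Named genes kept their direction across classes to different degrees. Hist1h1b was higher in the treated tumour in all 7 classes of cycling cells, by 3.11-fold in epithelial-like to 8.51-fold in endothelial-like cells. Hist1h1e, Hist1h2ae, Hist1h2ap, Hist1h4d and Hist1h4h also had ratios above 1 in all 7, but not everywhere from enough UMIs for a call. Hist1h1e, Hist1h2ae and Hist1h4d were called higher in all 6 classes where UMIs were enough. Hist1h2ap was so in 5 of 6 and Hist1h4h in 3 of 3. In neutrophil-like cells none of these genes had enough UMIs, and every interval included 1. Hist1h4h had 2 and 3 UMIs there (ratio 1.16, 0.0969 to 10.1). Hist1h1c was lower in the treated tumour in all 14 classes of at least 25 cells when all cells were taken, at ratios of 0.350 to 0.780, and in 23 of the 24 clusters with 50 cells in both tumours. Hist1h2bc was higher in 13 of the 14 classes, at up to 2.38 in epithelial-like cells (159 and 66.8 CPM), and 0.929 in T-like cells. In neutrophil-like cells Hist1h1c had 135 CPM in the treated and 378 CPM in the control tumour, and Hist1h2bc 157 and 126 CPM.

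T-like cycling cells had the largest ratio of summed levels of the 7 classes. Of 32 members with enough UMIs there, 27 were higher and 3 lower, beside 8.54% and 39.3% of 8737 genes. Hist1h2bj had the largest ratio, 51.7 CPM in the treated and 5.22 CPM in the control tumour (9.91-fold, 4.61 to 25.4). Hist1h1b had 777 and 99.8 CPM and Hist1h1e 299 and 38.7 CPM. Hist1h1c, lower in 5 of the 7 classes of cycling cells, was higher here, at 86.4 and 49.9 CPM. The T-like cells of both tumours fell into cluster 6, led by Lef1 and Tcf7 (1142 and 666 cells, 294 and 222 CPM over all its cells), and cluster 9, led by Cd8a and Pdcd1 among others (1067 and 1526 cells, 1067 and 324 CPM). An unnamed cluster led by Foxp3 and Il2ra had 776 CPM in 316 treated and 231 CPM in 230 control cells.

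Macrophage- or monocyte-like and epithelial-like cycling cells repeated the pattern at smaller size. In the macrophage- or monocyte-like class 18 of 24 members were higher and 1, Hist1h1c, lower, beside 9.92% and 24% of 10083 genes, with Hist2h2ac at 22.7 CPM in the treated and 1.75 CPM in the control tumour (13.0-fold, 4.89 to 48.7, 86 and 4 UMIs). In the epithelial-like class 22 of 34 were higher and 1, Hist2h2be, lower, beside 9.42% and 31% of 12033 genes, with Hist1h1b at 81.7 and 26.3 CPM and Hist1h1a at 15.9 and 4.31 CPM.

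To compare single cells at equal depth, each cell was thinned to 2000 UMIs and its histone UMIs counted without Hist1h1c and Hist1h2bc. Of the cycling cells with that depth, 17.8% (15.4 to 20.5; 919 cells) in the treated and 1.45% (0.813 to 2.38; 1035 cells) in the control tumour had 5 or more, at median depths before thinning of 11741 and 9023 UMIs. Any histone UMI was found in 50.1% and 37.0% of them. Without thinning, 42.4% of the 985 treated and 24.2% of the 1132 control cycling cells had 5 or more. In other cells, which serve as the background, 5 or more were found in 0.0212% of 9420 treated and 0.0802% of 8726 control cells and any in 16.3% and 14.6%, at median depths of 4789 and 3979.5 UMIs. Too shallow for thinning were 66 and 97 cycling cells and 8470 and 9377 other cells.

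**Figure D5:**
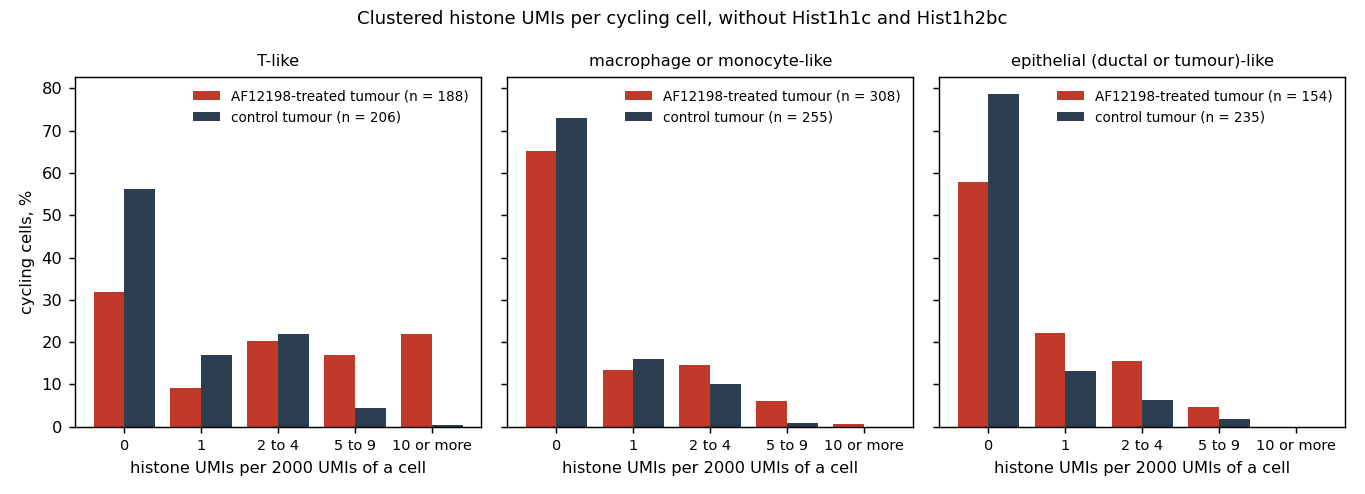
Share of cycling cells, in %, by the number of clustered histone UMIs per 2000 UMIs of the cell, without Hist1h1c and Hist1h2bc, in 3 cell classes. In each class the AF12198-treated tumour is the left bar and the control tumour the right bar, and in T-like cells 21.8% of treated and 0.485% of control cells have 10 or more.

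Strongly positive cells were a minority. Among T-like cycling cells, 31.9% in the treated and 56.3% in the control tumour had none, 17.0% and 4.37% had 5 to 9, and 21.8% and 0.485% had 10 or more. When cycling cells were split by whether their S-phase genes summed above their G2 and M genes, the treated tumour was higher on both sides. It had 973 CPM against 340 CPM in control cells on the S-phase side, a ratio of 2.86, and 1215 CPM against 433 CPM on the other side, a ratio of 2.81. The S-phase side held 41.5% of the cycling cells in each tumour.

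Other genes of the cell cycle and of histone supply were counted in the same way between the cycling cells of the 2 tumours. Beside the count of each list from here to the nuclear-retained RNAs stand 8.98% higher and 29.4% lower of all 14397 genes. The share of S-phase genes that were higher was near that of all genes. Of 37 S-phase genes, 3 were higher and 2 lower in the treated tumour, and the list summed to 2671 and 2878 CPM. Pcna, the sliding clamp of DNA polymerases, had 304 CPM in the treated and 371 CPM in the control tumour, Pclaf, which binds it, 260 and 254 CPM, and Rrm2, a subunit of the enzyme that makes deoxynucleotides, 83.2 and 147 CPM. Gins2, of the replicative helicase, had 34.2 and 21.0 CPM and Ccne1, a cyclin of S-phase entry, 15.9 and 9.95 CPM. Of 30 genes of G2 and M phase none was higher and 3 were lower, and the list, which holds the 2 genes that define a cycling cell, summed to 3360 and 3802 CPM.

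Of 30 genes for the transcription and 3' end cutting of histone mRNAs, 1 was higher, Lsm10, a part of the particle that guides the cut (15.5 CPM in the treated and 8.57 CPM in the control tumour). Lower were 4, among them Cstf2t, a cleavage factor (13.6 and 28.4 CPM), and Hinfp, an activator of H4 genes (10.9 and 18.8 CPM). Of 20 genes for making poly(A) tails none was higher and 3 were lower, with Pabpc1, the cytoplasmic poly(A)-binding protein, at 1065 and 1324 CPM. Of 24 chaperones and modifiers of new histones none was higher and 2, Tonsl and Daxx, were lower.

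Most histone genes that stand outside the clusters carry ordinary poly(A) tails and are used all through the cycle. The list taken here is not purely of this kind, as it holds Cenpa, which is on the G2 and M list as well. Of 12 in cycling cells, 2 were higher in the treated tumour, H3f3a (982 and 555 CPM) and H2afj (224 and 136 CPM), and 2 lower, H2afy2 and H1f0, a linker histone of resting cells (74.9 and 154 CPM). H2afz, a variant of H2A, had 1987 and 1494 CPM and H3f3b 1584 and 1265 CPM, differences below 1.5-fold. Their sum was 5558 CPM in the treated and 4297 CPM in the control tumour.

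Other measures moved with the tumours too. In cycling cells, 13 of 20 dissociation genes were lower in the treated tumour and none higher, with sums of 7560 and 13747 CPM and Junb at 1143 and 2394 CPM. Of 6 nuclear-retained RNAs 5 were lower, while Malat1 had 9377 and 8222 CPM. Their part in the histone values was not tested, and each tumour was prepared as 1 library, so treatment and library cannot be told apart.

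The control tumour and the ligated pancreas, into which no tumour cells were put, had nearly the same sum of members, 318 and 316 CPM, a ratio of 1.01 (0.958 to 1.06), made of different genes. Of 46 members, 5 were higher in the control tumour and 22 lower, beside 20.6% and 38.3% of 16926 genes. Hist1h1c had 113 CPM in the control tumour and 36.9 CPM in the ligated pancreas (3.06-fold, 2.66 to 3.54), Hist1h4i 22.5 and 9.59 CPM and Hist1h1b 8.21 and 3.76 CPM. The H4 genes were mostly lower, 8 of 10, with Hist1h4h at 3.05 CPM in the control tumour and 15.0 CPM in the ligated pancreas and Hist2h4 at 1.46 and 6.96 CPM. Without Hist1h2bc and Hist1h1c the sum in the control tumour was 0.672 of that in the ligated pancreas.

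This was so although the control tumour had more cycling cells, 5.89% against 1.51% (17 cells) in the ligated pancreas. The 30 G2 and M genes were all higher in the control tumour, with sums of 1031 CPM against 286 CPM. The 17 cycling cells of the ligated pancreas had 1245 CPM of histone genes against 287 CPM in its other cells, a ratio of 4.34 (3.72 to 5.03). Cycling cells had 1107 CPM in the treated tumour and 818 CPM in the normal pancreas (5 cells). Those of the control tumour, at 390 CPM, were thus the lowest of all libraries. In other cells 5 of 37 members were higher in the control tumour and 22 lower, beside 20.2% and 39.2% of genes. The members annotated to stop at the stem-loop summed there to 10.2 CPM in the control tumour and 37.8 CPM in the ligated pancreas. In fibroblast-like cells 13 of 20 members were lower in the control tumour and 3 higher, beside 16.1% and 23.6% of 13269 genes. In endothelial-like cells the sum was 211 CPM in 502 cells of the control tumour and 384 CPM in 130 cells of the ligated pancreas. Cluster 2 (led by Ptprb and Emcn) held most of these cells in both. Within it the sums were close, at 196 CPM in 401 cells of the control tumour and 179 CPM in 92 cells of the ligated pancreas. The ligated sum rests on few UMIs, so no order is read.

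The ligated pancreas against the normal pancreas had a sum of 316 and 342 CPM, a ratio of 0.925 (0.873 to 0.980). The direction turned to 1.25 without Hist1h2bc and Hist1h1c, and to 1.02 with cell classes weighted by their pooled share. Of 30 members with enough UMIs, 16 were higher in the ligated pancreas and 2 lower, beside 22.5% and 21.2% of 14654 genes. By family, 4 of 5 H1, 3 of 7 H2A, 3 of 7 H2B, 2 of 4 H3 and 4 of 7 H4 genes were higher. The 2 lower were Hist1h2bc, at 87.7 CPM in the ligated and 165 CPM in the normal pancreas, and Hist1h4d, at 20.9 and 35.8 CPM. Among the higher were Hist1h2ac (9.78 and 1.78 CPM, 5.50-fold, 3.22 to 9.72), Hist1h2ae (7.52 and 1.51 CPM) and Hist1h4i (9.59 and 3.29 CPM). Hist1h1b had 20 UMIs in the ligated and 0 in the normal pancreas. Its ratio was 14.1 with 3 counts taken as the floor of the normal library, and the exact 95% lower limit of the ratio was 10.4. Of these 20 UMIs, 2 lay outside the 17 cycling cells of the ligated pancreas, too few there for a call. In the epithelial-like class, mostly cluster 1 (led by Onecut1 and Slc28a3) in both, 4 of 19 members were higher and 3 lower, beside 15.8% and 12.3% of genes. There the sum was 253 CPM in the ligated and 356 CPM in the normal pancreas, with Hist1h2bc at 72.9 and 187 CPM. The lower level of Hist1h2bc did not hold in every class. In fibroblast-like cells it had 111 CPM in the ligated and 48.8 CPM in the normal pancreas (2.26-fold, 1.52 to 3.49). Within endothelial-like cluster 2 it had 21.0 and 41.6 CPM. The ligated value rests on very few UMIs, since 9 UMIs of Hist1h1c made 47.3 CPM there, so no direction is read.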

How the data were processed

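Cells from 4 mouse tissues were profiled with the 10x Genomics 3' kit (v3), 1 library per group. The authors deposited UMI counts per gene and cell barcode, not normalized, and the submitters' processing notes name Cell Ranger 6.0.0 and mm10. Neither the annotation release nor the number of mice per library is stated in the sources used here. The genes, gene lists and comparisons were chosen with earlier results of these data known.

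From the counts, cells with at least 250 genes, at least 500 UMIs and at most 20% mitochondrial UMIs were kept. Doublets were called with Scrublet per library and removed (993, 2163, 0 and 1 in the treated tumour, control tumour, ligated and normal pancreas). In the treated tumour the caller marked under 0.5% of cells, so the 5% with the highest scores were taken out. Cells were clustered (scanpy 1.11.5, Leiden, 2000 variable genes, 40 components, 20 neighbours, resolution 1) without histone and cell-cycle genes. A cluster was named when at least 3 markers of a class were 2-fold up and found in 10% of its cells. It stayed unnamed where markers of another class were nearly as strong, and these thresholds were set after the data were seen. Different clusters can hold a class in different libraries.

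UMIs were summed per library, class and state, and divided by the total of those cells (CPM). No test was possible with 1 library per group. A gene counted as higher or lower at 1.5-fold among genes with at least 20 UMIs in the 2 libraries compared. Median log2 ratios used CPM plus 1. Ratios have exact conditional binomial intervals and levels exact Poisson intervals (95%), and a gene at 0 UMIs was set to a floor of 3 counts per library. Classes needed 25 cells, or 20 cycling cells, in both libraries. The named genes are the 12 members with the most UMIs and the 5 largest and 5 smallest ratios of a comparison, with others named for the class they are described in after their values were seen. From each other list the 2 genes with the most UMIs and up to 4 past 1.5-fold with the largest change were eligible. Stem-loops were searched in GENCODE transcripts of GRCm38 and promoters taken from RefSeq. Ratios and intervals were tested on simulated counts. Python 3.11.15, numpy 2.4.6, scipy 1.17.1 and pandas 2.3.3 were used.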

Additional observations from a re-analysis of the deposited data

Results flagged for a closer look

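The summed histone level differed in opposite directions between the tumours in cycling and in other cells. Over all classes the ratio of the AF12198-treated over the control tumour was 2.84 in cycling cells and 0.818 in other cells. In macrophage- or monocyte-like cells it was 1.86 in cycling cells and 0.761 in other cells, and the clusters of this class went different ways over all their cells, with 112 CPM in the treated and 171 CPM in the control tumour in cluster 12 against 200.2 and 179 CPM in cluster 16. With 1 library per group, neither difference between the states was tested.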

How the results depend on the processing

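No paired analysis was possible because each group is 1 library. The ratio of summed levels of the treated over the control tumour, 1.22, was 1.17 with all deposited barcodes, 1.19 with doublets kept, 1.32 with mitochondrial, ribosomal and a few abundant nuclear RNAs left out of the total, 1.45 with the median gene set level, 1.04 with classes weighted by their pooled share, 1.40 without neutrophil-like cells and 1.87 without Hist1h2bc and Hist1h1c. It turned to 0.932 when each cell had equal weight and to 0.818 without cycling cells. For the control tumour over the ligated pancreas, 1.01, these were 0.924 (total), 1.16 (median gene), 1.28 (equal weight), 1.19 (classes), 0.866 (no neutrophil-like cells) and 0.672 (without the 2 genes). For the ligated over the normal pancreas, 0.925, they were 1.02 (classes), 0.853 (no cycling cells) and 1.25 (without the 2 genes). Members called higher in the treated tumour numbered 31, or 14 without cycling cells, and those lower 9, or 5 with the median gene set level and 3 at 2-fold. Their median log2 ratio of 0.26 was 0.14 with equal weight, 0.071 without cycling cells and 0.40 at 50 UMIs. Why these values moved was not tested beyond what each setting leaves out.

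Alternatives for the cycling state were chosen after seeing the data. In cycling cells the ratio of 2.84 was 2.70 (all barcodes), 2.73 (doublets kept), 3.08 (total), 3.41 (median gene), 2.69 (equal weight), 2.21 and 3.18 (cycling from 1 and from 4 UMIs) and 3.52 (without the 2 genes). In other cells 0.818 was 0.884 (total), 0.987 (median gene), 0.772 (classes), 0.868 (no neutrophil-like cells), 0.835 (from 4 UMIs) and 1.02 (without the 2 genes). Cycling over other cells in the treated tumour, 4.49, was 4.59 (total), 3.89 (equal weight), 5.30 (no neutrophil-like cells), 3.01 and 5.90 (from 1 and 4 UMIs) and 10.2 (without the 2 genes). In the control tumour 1.30 was 1.33 (all barcodes), 1.18 (equal weight), 1.59 (no neutrophil-like cells), 1.11 and 1.55 (from 1 and 4 UMIs) and 2.95 (without the 2 genes). Leaving out barcodes that also stood in another library gave 1.22 over all cells, 2.83 in cycling and 0.818 in other cells. Members called higher in cycling cells numbered 33 to 43 under the 10 settings in which they were counted, which do not include leaving out the 2 genes or shared barcodes.

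Among single classes and genes, the ratio of the treated over the control tumour crossed 1 without cycling cells in T-like (0.999), dendritic-like (0.956), mast- or basophil-like (0.820) and pericyte- or smooth muscle-like cells (0.833). It did so with the median gene set level for Hist1h4i (1.03) and Hist3h2a (1.04). Ratios whose own interval includes 1 also changed side. Without cycling cells, erythroid-like cells had 0.726 in place of 1.14, B-like cells 1.04 in place of 0.905 and Hist1h1d 0.576 in place of 1.05. With the median gene set level, B-like cells had 1.21, acinar-like cells 1.75 in place of a ratio below 1 and macrophage- or monocyte-like cells 1.20 in place of 0.987. With the reduced total, B-like cells had 1.10 and macrophage- or monocyte-like cells 1.05. With equal weight, B-like cells had 1.10. With doublets kept, macrophage- or monocyte-like cells had 1.01. With all barcodes, Hist1h1d had 0.941. The depth limits genes of few UMIs, whose intervals are wide, and the ligated and normal libraries, which hold 17 and 5 cycling cells.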
